A study of Mus musculus with 6 samples.

Results

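The 2 arrays of mouse embryonic stem cells carrying the short hairpin shJmjd1c#4 (sh4) were compared with the 2 arrays carrying the short hairpin shJmjd1c#3 (sh3), which is directed against the same gene. The comparison was chosen with earlier results of these data known. Its 4 arrays, of 6 in the study, were taken by their transfection label and not by a measured value. A difference between them is a difference between 2 hairpins for 1 target, so the comparison asks how far the expression profile of a Jmjd1c knockdown depends on the hairpin used. Of 18193 genes with a probe set of 1 symbol on the array, 12684 passed the filter on dim probe sets and were tested.

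The cells were J1, a mouse embryonic stem cell line, infected with pLKO.1 lentivirus coding for shJmjd1c#3, shJmjd1c#4 or a non-targeting hairpin (shNT). Puromycin at 1.5 ug/ml was applied for 2 days from the day after infection, and the resistant cells were replated and grown for 4 days. All 3 groups shared the vector, the selection and the medium, which held 15% serum and 1000 U/ml of leukemia inhibitory factor, on gelatin without a feeder layer named in the labels. Each group had 2 biological replicates, and 6 ug of total RNA of each was labelled for 1 Affymetrix Mouse Genome 430 2.0 array. The resistant cells were a pool, and the labels name no clone, no rescue construct and no protein measurement.

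A short hairpin RNA is processed by Dicer into a small interfering RNA that guides Argonaute to transcripts matching its guide strand. Besides the intended target, the first bases of the guide can pair with sites in other transcripts, and hairpins differ in how strongly they act, so profiles of different hairpins for 1 gene are commonly set side by side. Jmjd1c (Kdm3c) codes for a JmjC-domain protein of the family of lysine demethylases that also holds Kdm3a and Kdm3b. In culture with serum and leukemia inhibitory factor, embryonic stem cells keep an epithelial character, and a minority can pass toward primitive endoderm, the lineage that lays down basement membrane in the embryo. The hairpin sequences and their target positions were not analysed here.

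Values are array signals on a linear scale, and differences are sh4 minus sh3 on the log2(signal + 16) scale. The median signal of an array was 69.2 to 81.0, and across genes the sh3 arrays correlated at r = 0.986 with each other, the sh4 arrays at 0.980 and arrays of different hairpins at 0.979 to 0.984. Arrays of different hairpins with the same replicate number, at 0.9835 and 0.9842, were more alike than the sh4 replicates and less alike than the sh3 replicates. Those with different replicate numbers, at 0.9786 and 0.9792, were less alike than the replicates of either hairpin. The ratio of 3' to 5' signal of Actb, a measure of RNA integrity, was 2.26 and 2.40 in sh3 and 2.80 and 2.81 in sh4, with 2.70 and 2.77 in shNT. The mean of the 18S ribosomal RNA control probe sets was 7775 and 6122 in sh3 and 4259 and 5566 in sh4. The 3' to 5' ratio of Gapdh overlapped, at 1.30 and 1.47 in sh3 and 1.33 and 1.49 in sh4. Thus the Actb ratio and the 18S signal separated the hairpins without overlap, and the Gapdh ratio did not. The part of these measures in the results was not tested.

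Jmjd1c itself was read by 3 probe sets. The brightest, 1426900_at, had signals of 4541 and 4984 in sh3 and of 3274 and 4215 in sh4, beside 6060 and 5516 in shNT. On this probe set both sh4 arrays lay below both sh3 arrays, and both hairpins lay below the control. Between the hairpins this amounts to -0.36 on the log2 scale (SE 0.145), which did not pass when all probe sets were tested by limma (adjusted p = 0.946). The other probe sets did not separate the hairpins, and against the control they went the other way. At 1439998_at the signals were 511 and 286 in sh3 and 427 and 397 in sh4, a log2 difference of 0.10, with 198 and 273 in shNT. At 1448049_at they were 727 and 660 in sh3 and 822 and 630 in sh4, a log2 difference of 0.05, with 368 and 373 in shNT. All 4 knockdown arrays thus lay above both control arrays on these 2 dimmer probe sets, and which parts of the transcript they read was not analysed here. Both small differences turned negative when single arrays were left out, and the probe sets do not show which hairpin acted more strongly on Jmjd1c.

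Across all genes, the smallest p-values belonged to Srgn, Hmga2, Col4a1 and Vegfc among genes with higher signal in sh4, and to Mreg, Ssr1, Dnajc3 and Ptpmt1 among genes with lower signal. Genes of primitive endoderm read higher in sh4 and genes of epithelial junctions lower, as lists described further on. With limma and Benjamini-Hochberg adjustment, 0 of 12684 genes (0%) passed at an adjusted p under 0.05, and the smallest adjusted p was 0.191, for Srgn. At an unadjusted p under 0.05, 774 genes differed (6.1%), 374 with higher signal in sh4 (2.95%) and 400 with lower signal (3.15%). Without the replicate 1 array of sh3 that number was 449, and without the replicate 2 array of sh3 it was 470. The log2 difference of 107 genes was at least 1 in size (0.844%), of which 67 were higher and 40 lower in sh4. The 5th and the 95th percentile of the difference over all genes were -0.45 and 0.50. Both sh4 arrays lay above both sh3 arrays at 2580 genes (20.3%) and below them at 2304 (18.2%). Exact permutation of 2 arrays against 2 cannot give a 2-sided p below 0.333, so single genes are tested by limma only.

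With the replicate number as a block, which removes what same-numbered arrays of all 3 groups share, 53 genes passed, 22 of them higher (0.173%) and 31 lower in sh4 (0.244%). Of these, 51 had an unadjusted p under 0.05 without the block, and 9 had a log2 difference of at least 1. Genes are described below as higher or lower by their signals, and where a named gene passed with the replicate block its adjusted p from that fit is given. That fit rests on a pairing that no label states.

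The 15 genes with the smallest p among those higher in sh4, with arrays that did not overlap and a mean signal of at least 100 in the higher group (symbols of uncharacterised genes passed over), began with Srgn, which codes for serglycin, the core protein of secretory granule proteoglycans. The signal of Srgn (1417426_at) was 158 and 113 in sh3 and 752 and 618 in sh4. The sh4 arrays stood far above the sh3 arrays and also above the shNT arrays, at 256 and 170, while sh3 stood below them. The log2 difference was 2.22 (SE 0.263; limma adjusted p = 0.191, and 0.00112 with the replicate block), the largest of these 15 genes. Cubn, which codes for cubilin, an endocytic receptor of visceral endoderm and kidney, read 121 and 83.8 in sh3 and 408 and 290 in sh4 (1452270_s_at). Its log2 difference was 1.62 (SE 0.294; limma adjusted p = 0.361, and 0.0168 with the replicate block), and sh3 lay at the level of shNT, 111 and 83.8. Nr2f2, which codes for the orphan nuclear receptor COUP-TFII, read 17.6 and 10.6 in sh3 and 118 and 95.01 in sh4. On the log2 scale sh4 exceeded sh3 by 2.03 (SE 0.371; limma adjusted p = 0.361). The sh3 signals of Nr2f2 are in the range of background, so the size of its difference depends on the pseudocount, and it did not pass with the replicate block either (adjusted p = 0.0640 by limma).

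Both chains of the commonest type IV collagen, the network-forming collagen of basement membranes, were among the 15. Col4a1 (1452035_at) read 1046 and 1277 in sh3 and 2672 and 2050 in sh4, beside 698 and 787 in shNT. Col4a2 (1424051_at) read 249 and 321 in sh3 and 734 and 562 in sh4, beside 182 and 212. These genes, which lie head to head on 1 chromosome, thus followed the same order of groups, with sh3 above the control and sh4 above sh3. Their log2 differences were 1.01 (SE 0.171) and 1.14 (SE 0.223), and both passed with the replicate block (adjusted p = 0.0219 and 0.0475 by limma).

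Others of the 15 follow by role. Hmga2, which codes for a chromatin architectural protein of growing embryonic cells, read 839 and 821 in sh3 and 1510 and 1642 in sh4 (1450780_s_at; log2 0.91, SE 0.140; adjusted p = 0.0168 by limma with the replicate block). A separate Hmga2 probe set, 1422851_at, read 361 and 769 in sh3 and 1357 and 1747 in sh4, a log2 difference of 1.52 in the same direction. At 1450781_at the difference was 0.96. The dim 1446196_at did not differ, with 53.7 and 41.5 in sh3 and 49.0 and 46.1 in sh4 (log2 0.0046). Ccnd2, which codes for cyclin D2, read 463 and 427 in sh3 and 1172 and 824 in sh4 (log2 1.12, SE 0.220; adjusted p = 0.0168 by limma with the replicate block). Vegfc, a ligand of endothelial growth factor receptors, read 797 and 768 in sh3 and 1353 and 1346 in sh4 (log2 0.77, SE 0.132; adjusted p = 0.0237 by limma with the replicate block). The replicates of Vegfc were the closest of these genes, and the control, at 1088 and 1184, lay between the hairpins. Inhbb, which codes for a subunit of activin B, read 164 and 138 in sh3 against 284 and 397 in sh4, with 327 and 300 in shNT, so here sh3 stood apart from the other groups. Sfrp1, a secreted Wnt inhibitor, read 474 and 389 in sh3 and 710 and 775 in sh4, and Prickle1, a planar cell polarity gene, 1334 and 1266 against 2269 and 1992. Inhbb and Sfrp1 did not pass with the replicate block (adjusted p = 0.0605 and 0.0608 by limma), and Prickle1 did (0.0386).

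The remaining 4 of the 15 were Med28, a Mediator subunit gene (log2 0.60), Zfp46, a zinc finger gene (0.99), Hsd17b7, which codes for an enzyme of sterol synthesis (0.83), and Mrps33, which codes for a protein of the mitochondrial ribosome (0.54). With the replicate block Med28 passed by limma (adjusted p = 0.0319), as did Zfp46 and Hsd17b7 (both 0.0499), and Mrps33 did not (0.0563). Each had replicates closer to each other than to the other hairpin. Mrps33 read 1539 and 1670 in sh3 and 2358 and 2334 in sh4, and the sh4 level was that of shNT, 2344 and 2173. One further probe set of Hsd17b7, 1440057_at, and one of Prickle1, 1444759_at, had small differences of the opposite sign, -0.09 and -0.08.

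**Figure D1:**
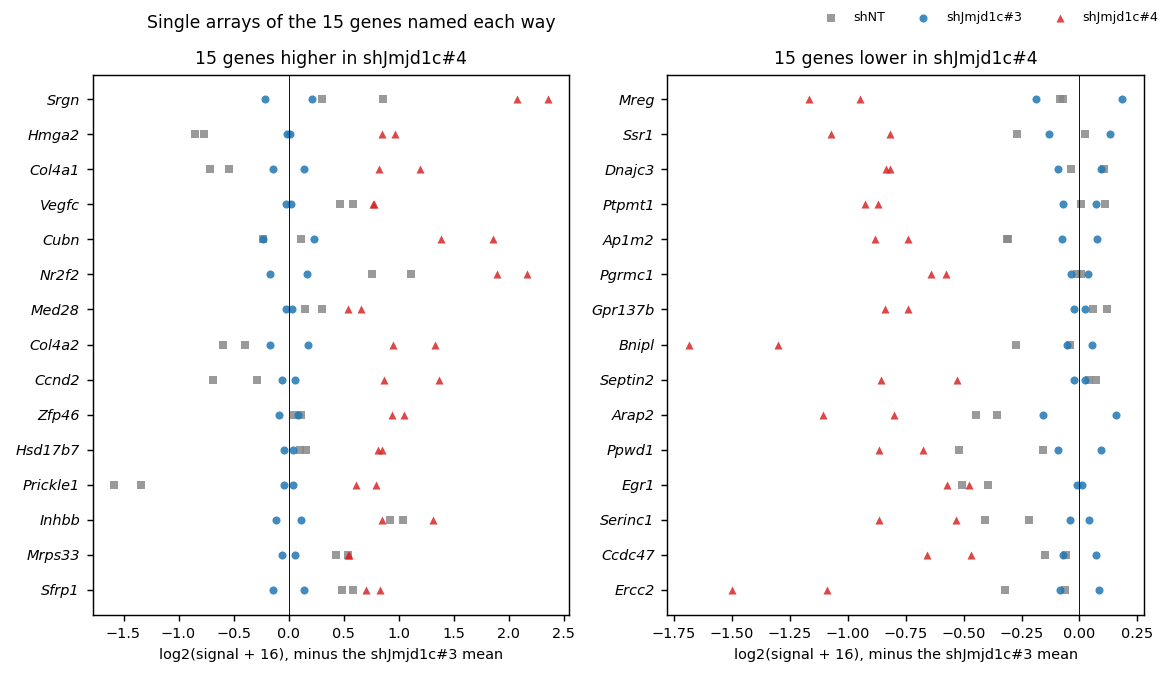
Signals on the 6 arrays of the 15 genes named in each direction, as log2(signal + 16) minus the mean of the shJmjd1c#3 arrays (horizontal axis, log2 units), with 1 gene per row. Circles are shJmjd1c#3, triangles shJmjd1c#4 and squares shNT, 2 arrays each. The genes were chosen for arrays that do not overlap between the hairpins, and the shNT arrays fall between them for Vegfc, on the shJmjd1c#3 side for Mreg and on the shJmjd1c#4 side for Inhbb.

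Among the 15 genes lower in sh4, taken by the same rule, Mreg, which codes for melanoregulin, a protein of organelle transport, had the smallest p. Mreg (1437250_at) read 9096 and 7030 in sh3 and 3550 and 4139 in sh4, beside 7548 and 7612 in shNT, so that sh4 stood apart from both other groups. Its log2 difference was -1.06 (SE 0.143; limma adjusted p = 0.274, and 0.0122 with the replicate block). Ssr1, which codes for the alpha subunit of the translocon-associated protein complex, which assists the entry of new proteins into the endoplasmic reticulum, read 4029 and 4843 in sh3 and 2092 and 2498 in sh4 (log2 -0.95, SE 0.153; adjusted p = 0.0168 by limma with the replicate block). Dnajc3, an endoplasmic reticulum co-chaperone gene, read 1432 and 1256 in sh3 and 744 and 755 in sh4 (log2 -0.83, SE 0.138; adjusted p = 0.0219 by limma with the replicate block). Ccdc47, which codes for a membrane protein that acts at the translocon, read 7875 and 8672 in sh3 and 5226 and 5967 in sh4 (log2 -0.56, SE 0.117; adjusted p = 0.0168 by limma with the replicate block), although its probe set 1442525_at differed by 0.32 the other way. In the list of 20 endoplasmic reticulum chaperone genes, which holds Dnajc3, the median difference was -0.02, beside 0.01 over all genes tested, and it ran from -0.10 to 0.10 as single knockdown arrays were left out. In that list 0 genes were higher and 1 lower (5%) at an unadjusted p under 0.05, beside 2.95% and 3.15% of all genes. The 1 lower gene was Dnajc3 itself.

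Another 5 of these 15 genes follow. Ap1m2, which codes for the epithelial subunit of the clathrin adaptor AP-1, read 1222 and 1359 in sh3 and 691 and 764 in sh4, with 1034 and 1038 in shNT between them (log2 -0.81, SE 0.139; adjusted p = 0.0207 by limma with the replicate block). Arap2, which codes for a regulator of Arf6, read 605 and 758 in sh3 and 305 and 382 in sh4, again with shNT between them at 526 and 493. Gpr137b, which codes for a lysosomal membrane protein, read 916 and 885 in sh3 and 496 and 533 in sh4, with shNT on the sh3 side at 937 and 978. Serinc1, a membrane protein gene, read 3282 and 3100 against 1742 and 2202 (log2 -0.70), and Septin2, which codes for a filament-forming GTPase, 2944 and 3039 against 1647 and 2070 (log2 -0.69). All 5 of these genes passed with the replicate block, Arap2 at an adjusted p of 0.0386 by limma, Gpr137b at 0.0347, Serinc1 at 0.0490 and Septin2 at 0.0237.

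Ptpmt1, which codes for a mitochondrial phosphatase of cardiolipin synthesis, read 778 and 862 in sh3 and 424 and 441 in sh4 (log2 -0.90, SE 0.151; adjusted p = 0.0207 by limma with the replicate block). Pgrmc1, which codes for a heme-binding membrane protein, read 4602 and 4382 in sh3 and 2878 and 3007 in sh4 (log2 -0.61; adjusted p = 0.0207 by limma with the replicate block). Egr1, an immediate early transcription factor of the ERK pathway, read 6688 and 6575 in sh3 and 4755 and 4457 in sh4 (log2 -0.53, SE 0.107; adjusted p = 0.0386 by limma with the replicate block). For Egr1 the sh4 level was near that of shNT, 4658 and 5039, and sh3 stood above both. The largest differences on this side were in dim genes: Bnipl read 187 and 202 in sh3 and 69.5 and 49.4 in sh4 (log2 -1.49; adjusted p = 0.0475 by limma with the replicate block), and Ercc2, which codes for a helicase of the repair and transcription factor TFIIH, 224 and 198 against 90.4 and 64.1 (log2 -1.30; 0.0565). Ppwd1, a cyclophilin gene, differed by -0.77 on the log2 scale and passed with the replicate block (adjusted p = 0.0168 by limma). Of the 30 genes named here, 25 passed with the replicate block. Other probe sets above the filter existed for 15 of the 30 genes, 36 in all, and 33 of them had the same sign.

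The non-targeting control did not enter the difference between hairpins, and it shows on which side of it each gene lay; both differences from shNT use the same control arrays. Of the 15 genes higher in sh4, 6 had sh4 above both shNT arrays and sh3 below both: Srgn, Vegfc, Nr2f2, Med28, Hsd17b7 and Sfrp1. A further 5, Hmga2, Col4a1, Col4a2, Ccnd2 and Prickle1, lay above shNT with both hairpins and further with sh4. For Cubn and Zfp46 only the sh4 arrays lay outside the range of shNT, and for Inhbb and Mrps33 only the sh3 arrays. Against shNT by limma, 6 of the 15 passed with sh4 and 1, Prickle1, with sh3. Of the 15 genes lower in sh4, Ap1m2, Arap2, Ppwd1 and Serinc1 lay on opposite sides of shNT, and 8 had only the sh4 arrays outside its range, among them Mreg, Ssr1, Dnajc3 and Ptpmt1. Egr1 alone had only the sh3 arrays outside it, and Gpr137b and Septin2 lay below it with both hairpins. Of these 15, 4 passed against shNT with sh4 and 0 with sh3. Both sets of 15 had been chosen for sh4 and sh3 arrays that do not overlap, which bears on where shNT falls. The same counts were not taken over all genes, so whether they differ from those of all genes was not tested.

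Genes of primitive and visceral endoderm were higher with sh4. In this list of 28 genes, 27 were on the array and 21 passed the filter, and their median log2 difference was 0.29, with 0.32 in the replicate 1 arrays and 0.41 in the replicate 2 arrays, beside 0.01 over all genes tested. At an unadjusted p under 0.05, 8 of 21 were higher and 0 lower, where 2.95% and 3.15% of all genes were. With the replicate block 5 passed, all higher: Col4a1, Cubn, Col4a2, Lama1 and Dab2. Both sh4 arrays lay above both sh3 arrays at 9 genes (42.9%, beside 20.3% of all genes) and below them at 1 (4.76%, beside 18.2%). The list holds the collagen and cubilin genes described above, so it is not independent of them.

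The transcription factors that begin primitive endoderm had low signals. Gata6, a zinc finger factor at the head of that lineage, read 82.7 and 77.3 in sh3 and 214 and 144 in sh4, with 113 and 99.3 in shNT (log2 1.00, SE 0.290; adjusted p = 0.592 by limma). Sox17, an HMG-box factor, read 65.6 and 62.0 in sh3 and 261 and 160 in sh4, with 59.2 and 45.9 in shNT (log2 1.47, SE 0.326; adjusted p = 0.427 by limma). Sox7, a close relative of Sox17, read 24.9 and 47.5 in sh3 and 121 and 70.1 in sh4 (log2 1.09, SE 0.402; adjusted p = 0.783 by limma). For each of the 3 factors both sh4 arrays exceeded both sh3 arrays and both shNT arrays, and the replicate 1 array of sh4 was the higher. With limma, 0 of these 3 passed with the replicate block. Gata4, which acts with Gata6, read 83.1 and 50.9 in sh3 and 34.8 and 62.3 in sh4, so its arrays overlapped.

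Among the matrix and endocytic genes of the lineage, Lama1, which codes for the laminin alpha 1 chain of the embryonic basement membrane, read 415 and 507 in sh3 and 875 and 908 in sh4, with 438 and 708 in shNT (log2 0.93, SE 0.228; adjusted p = 0.0475 by limma with the replicate block). Dab2, which codes for an endocytic adaptor, read 245 and 218 in sh3 and 651 and 412 in sh4, with 265 and 140 in shNT (log2 1.11, SE 0.317; adjusted p = 0.0499 by limma with the replicate block). The genes of partner chains of laminin, Lamb1 and Lamc1, differed by 0.13 and 0.12 on the log2 scale, and the cubilin partner Amn read 210 and 195 in sh3 and 135 and 196 in sh4, so its arrays overlapped. Lrp2, which codes for megalin, read 991 and 860 in sh3 and 993 and 777 in sh4. Genes of mature visceral endoderm were dim: Afp read 25.6 and 7.31 in sh3 and 19.8 and 32.2 in sh4, and Ttr 28.3 and 19.2 against 20.3 and 29.8. Foxa2, under the filter by its mean, read 19.14 and 22.3 in sh3 and 66.7 and 65.8 in sh4. Whether more cells of an endoderm type or more RNA per cell gave these values cannot be told apart in bulk samples. Without the replicate 1 array of sh4 the number of list genes at an unadjusted p under 0.05 was 5, and otherwise 7 or 8. The median of the 21 genes was 0.44 and 0.45 without the replicate 1 and 2 arrays of sh3, and 0.30 and 0.42 without those of sh4. It was 0.18 with a filter at the 60th percentile.

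The upstream bases of these genes were searched for the letters bound by GATA factors, since Gata6 and its targets are the classical regulators of this lineage. RefSeq windows of 250 bases before the start site (GRCm38.p6) were searched for 4 of the 8 genes higher at an unadjusted p under 0.05, as 5 windows. Windows on 1 chromosome had been left out, here and among all genes, so a gene not searched may still have a window. The motif was AGATAA or TGATAA, or either of these ending in G (AGATAG and TGATAG), on either strand. It was present in 1 of the 5 windows (20%), beside 26.5% of 32851 windows of all genes searched, a share over few windows. The window that held it, before the upstream start of Dab2, is printed with the motif in capitals, and that of Cubn, the gene of the list with the largest difference, held none.
Dab2, chr15:6299539-6299788, plus strand: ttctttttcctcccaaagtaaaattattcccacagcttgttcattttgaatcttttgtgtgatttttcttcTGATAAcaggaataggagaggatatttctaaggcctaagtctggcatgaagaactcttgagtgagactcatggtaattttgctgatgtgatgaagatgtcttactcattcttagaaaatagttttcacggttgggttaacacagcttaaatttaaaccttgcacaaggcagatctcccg
Cubn, chr2:13491877-13492126, minus strand: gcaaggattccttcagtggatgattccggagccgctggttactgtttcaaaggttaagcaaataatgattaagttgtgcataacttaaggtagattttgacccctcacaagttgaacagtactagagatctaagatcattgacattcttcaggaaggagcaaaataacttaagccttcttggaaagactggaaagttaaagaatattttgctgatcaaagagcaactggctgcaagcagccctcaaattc
The motif in the Dab2 window began 179 bases before the start site. A match in letters is not a site of binding, and the absence of these letters says nothing of other elements.

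Epithelial junction genes were lower with sh4. Of 28 genes tested in this list, the median log2 difference was -0.41, with -0.34 in the replicate 1 arrays and -0.48 in the replicate 2 arrays. At an unadjusted p under 0.05, 0 were higher and 9 lower (32.1%, beside 3.15% of all genes), and both sh4 arrays lay below both sh3 arrays at 16 genes (57.1%, beside 18.2% of all genes) and above them at 0. With the replicate block 2 passed, Cldn7 and Epcam. The side of the control mattered here: the list median was 0.33 for sh3 minus shNT and -0.11 for sh4 minus shNT, both against the same control arrays.

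Cldn7, a claudin gene of tight junctions, read 2475 and 2102 in sh3 and 1617 and 1058 in sh4, with 1629 and 1231 in shNT (log2 -0.79, SE 0.215; adjusted p = 0.0207 by limma with the replicate block). Dsp, which codes for desmoplakin of desmosomes, the adhesion plaques that anchor keratin filaments, read 2240 and 2459 in sh3 and 1618 and 1477 in sh4, with 1741 and 1605 in shNT (log2 -0.60, SE 0.126; adjusted p = 0.402 by limma). For both genes the sh4 arrays overlapped the control and the sh3 arrays were above it. Epcam, an epithelial cell adhesion gene of undifferentiated stem cells, read 7370 and 7253 in sh3 and 5529 and 5208 in sh4, with 7379 and 6760 in shNT (log2 -0.45, SE 0.107; adjusted p = 0.0490 by limma with the replicate block). For Epcam it was sh4 that left the control range. St14, which codes for the membrane protease matriptase, read 1454 and 1673 in sh3 and 1148 and 1050 in sh4 (log2 -0.50, SE 0.136). Pkp2, Esrp1, Cldn4, Grhl2 and Prss8 were the other genes with an unadjusted p under 0.05, with log2 differences from -0.53 to -0.44.

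Other members had smaller differences. Cdh1, which codes for E-cadherin, read 17257 and 16977 in sh3 and 15270 and 13768 in sh4, with 14441 and 12329 in shNT (log2 -0.24, SE 0.118; adjusted p = 0.827 by limma). Ctnnb1, Ctnna1 and Jup, which code for catenins, differed by -0.19, -0.0075 and -0.034, and Tjp1, a tight junction scaffold gene, by -0.040. Without the replicate 2 array of sh3, the number of list genes at an unadjusted p under 0.05 was 4, with a median of -0.27.

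**Figure D2:**
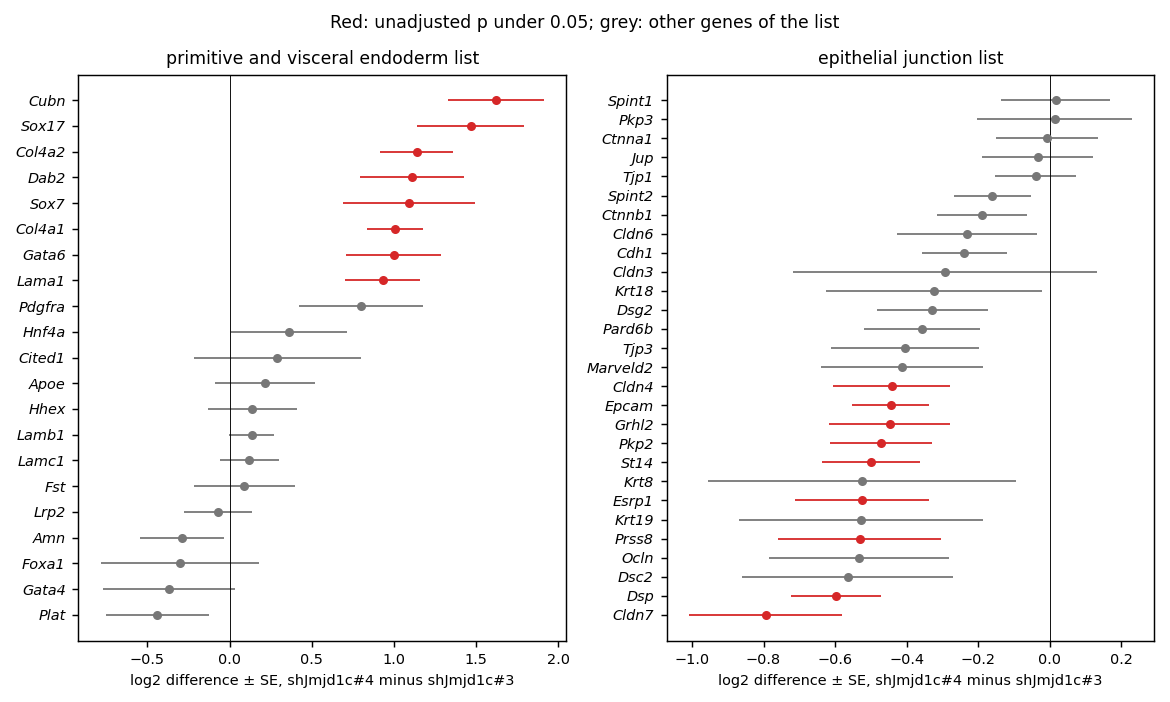
Log2 difference in signal, shJmjd1c#4 minus shJmjd1c#3, with its standard error from limma (2 arrays a group) for the 21 tested genes of the primitive and visceral endoderm list (left) and the 28 of the epithelial junction list (right). Red marks an unadjusted p under 0.05: 8 endoderm genes, all above 0, and 9 junction genes, all below 0.

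Mesenchymal, matrix and fibroblast genes gave a mixed picture. In the mesenchymal list the median of 20 genes tested was 0.20, with 5 higher and 1 lower at an unadjusted p under 0.05 (25% and 5%, beside 2.95% and 3.15% of all genes). The 6 in all were 4 without the replicate 1 array of sh3, 3 without its replicate 2 array or the replicate 1 array of sh4, and 7 without the replicate 2 array of sh4, with medians of 0.31, 0.28, 0.27 and 0.40. Zeb1, a repressor of epithelial genes, read 264 and 246 in sh3 and 497 and 435 in sh4, with 441 and 566 in shNT (log2 0.83, SE 0.197; adjusted p = 0.503 by limma). The sh3 arrays of Zeb1 stood apart below both other groups. Tgfbi, which codes for a secreted matrix protein induced by TGF-beta, read 343 and 278 in sh3 and 683 and 574 in sh4 (log2 0.98, SE 0.259; adjusted p = 0.0475 by limma with the replicate block). Sparc, which codes for a collagen-binding secreted protein, went the other way, with 4052 and 4670 in sh3 and 3266 and 3323 in sh4 (log2 -0.40, SE 0.117). In the list of matrix and integrin genes, 7 of 28 were higher and 2 lower at an unadjusted p under 0.05, and the median was 0.13, or 0.023 when the probe sets of each gene were averaged. The 2 lower genes were Sparc and Agrn, which codes for the basement membrane proteoglycan agrin and read 3467 and 3264 in sh3 and 2633 and 2000 in sh4.

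Markers of feeder fibroblasts, cells on which stem cell lines are often kept, moved with these lists. Of the 23 on the array, 15 passed the filter, 14 of those were above 0 and 1 below, with a median of 0.26. Of all genes tested, 6553 were above 0 and 6131 below. At an unadjusted p under 0.05, 4 of the 15 were higher (26.7%) and 0 lower, beside 2.95% and 3.15% of all genes. The summed signal of the 23 was 4596 and 4573 in sh3, 5781 and 5794 in sh4 and 3865 and 3696 in shNT. Dcn, which codes for decorin, read 41.4 and 47.1 in sh3 and 106 and 113 in sh4, and Serpinf1 179 and 172 against 281 and 327, while Lum and Fap stayed between 0.85 and 33.5 on these 4 arrays. Dcn and Serpinf1 are also expressed by mesenchymal cells other than feeders. The count at an unadjusted p under 0.05 was between 0 and 2, not 4, when any 1 knockdown array was left out, the median was 0.17 without the replicate 1 array of sh3, and the part of such cells in the mesenchymal and matrix values was not tested.

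Targets of the actin-sensing factors SRF and YAP, of ERK and of Wnt with an unadjusted p under 0.05 were all lower with sh4. They made up 11.5% of the actin list, 10% of the ERK list and 18.2% of the Wnt list. Of all genes, 2.95% were higher and 3.15% lower. The counts are small and changed as single arrays were left out. In the list of actin, SRF and YAP genes, 26 were tested, with a median of -0.12 and 0 higher and 3 lower at an unadjusted p under 0.05. Ajuba, which codes for a LIM protein of junctions that acts in the Hippo pathway, read 4374 and 5403 in sh3 and 2946 and 3396 in sh4 (log2 -0.62, SE 0.148; adjusted p = 0.0183 by limma with the replicate block). Ccn1, a YAP and SRF target formerly called Cyr61, read 1846 and 2244 in sh3 and 1238 and 1384 in sh4 on a probe set that may match several transcripts (adjusted p = 0.0490 by limma with the replicate block). Among its other probe sets the differences were -0.39 and -0.16, and 0.038 on the only one specific by its name. Without the replicate 2 array of sh3, 1 gene of the actin list had an unadjusted p under 0.05 and the median was 0.020, and without the replicate 1 array of sh3 these were 5 genes and -0.22. Of 20 ERK response genes, 0 were higher and 2 lower at an unadjusted p under 0.05, Egr1 and Myc, with a median of -0.09. That median was -0.0040 without the replicate 2 array of sh3, -0.0052 without the replicate 2 array of sh4 and -0.032 without the replicate 1 array of sh3, when the count was 1. Myc read 626 and 698 in sh3 and 549 and 419 in sh4. Of 11 Wnt target genes, 0 were higher and 2 lower at that threshold, with a median of -0.13. Without the replicate 2 array of sh3 the count was 0, and without the replicate 1 array of sh4 it was 1. The median ran from -0.33 without the replicate 1 array of sh4 to 0.088 without its replicate 2 array, and was -0.038 without the replicate 1 array of sh3. The Wnt target Axin2, a feedback inhibitor of the pathway, read 369 and 474 in sh3 and 273 and 268 in sh4 (log2 -0.60, SE 0.202; adjusted p = 0.712 by limma).

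Of the D-type cyclin genes, Ccnd2 and Ccnd3 were higher with sh4. Of 37 cell cycle genes tested, 3 were higher (8.11%) and 0 lower at an unadjusted p under 0.05, beside 2.95% and 3.15% of all genes. The median was 0.05, and -0.014 with each array centred on its median. Besides Ccnd2, these were Ccnd3, which codes for cyclin D3 and read 971 and 830 in sh3 and 1503 and 1305 in sh4 (log2 0.63, SE 0.145), and Mki67, a proliferation marker, at 5601 and 5631 against 6510 and 6998 (log2 0.26, SE 0.104). Ccnd1, which codes for cyclin D1, went the other way, with 3537 and 3450 in sh3 and 3143 and 2770 in sh4 (log2 -0.24, SE 0.122; adjusted p = 0.827 by limma). Of the 37 genes only Ccnd2 passed with the replicate block.

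Most genes of the respiratory chain and of the ribosome read slightly higher with sh4 than with sh3. Against shNT the ribosomal list had medians of -0.21 with sh3 and -0.021 with sh4. The respiratory chain list had medians of -0.11 and 0.035, against the same control arrays, so the sh4 medians lay nearer the control. Of 55 oxidative phosphorylation genes, 49 were above 0 and both sh4 arrays exceeded both sh3 arrays at 38 (69.1%), with a median of 0.16. At an unadjusted p under 0.05, 7 were higher (12.7%, beside 2.95% of all genes) and 0 lower. Atp5o, which codes for a subunit of ATP synthase, read 7174 and 7395 in sh3 and 8987 and 9169 in sh4 (log2 0.32, SE 0.110), and Ndufs7, of complex I, 4445 and 4519 against 5677 and 5418 (log2 0.31, SE 0.107). Of 44 ribosomal protein genes, 38 were above 0 and 27 did not overlap in that direction (61.4%), with a median of 0.20. At an unadjusted p under 0.05, 2 of them were higher (4.55%). These lists lie mostly in the top decile of genes by signal, in which the median was 0.04, 28.1% were higher without overlap and 13.3% lower. The ribosomal median was 0.03 after quantile normalization, and the respiratory chain median 0.11. With each array centred on its median, which moves the median of all genes from 0.01 to -0.06, they were 0.13 and 0.09. The number of respiratory chain genes at an unadjusted p under 0.05 was 0 without either one of the sh3 arrays, 2 without the replicate 1 array of sh4 and 4 without the replicate 2 array.

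Metabolic and stress lists held single genes with an unadjusted p under 0.05, a level at which 2.95% of all genes were higher and 3.15% lower. Of 30 glycolysis and hypoxia genes, 2 were higher (6.67%) and 0 lower at an unadjusted p under 0.05, with a median of 0.15. Both sh4 arrays exceeded both sh3 arrays at 13 of the 30 (43.3%, beside 20.3% of all genes). Aldoa, which codes for an aldolase of glycolysis, read 12315 and 10624 in sh3 and 16006 and 13764 in sh4 (log2 0.38, SE 0.124). P4ha2, which codes for a collagen prolyl hydroxylase, read 545 and 524 in sh3 and 707 and 727 in sh4 (log2 0.41, SE 0.158). Of 20 sterol synthesis genes 16 were above 0 and 9 did not overlap in that direction (45%, beside 20.3% of all genes). Their median was 0.17, and only Hsd17b7 had an unadjusted p under 0.05 (5%). The sterol count was 2 without the replicate 1 array of sh3 and 3 without the replicate 2 array of sh4, and its median ran from 0.082 without the replicate 2 array of sh3 to 0.25. The glycolysis count was 1 without either one of the sh3 arrays, and its median ran from 0.093 without the replicate 1 array of sh4 to 0.25 without its replicate 2 array. The metallothionein gene Mt2 read 12702 and 17849 in sh3 and 17582 and 22161 in sh4, so its arrays overlapped, and it passed with the replicate block only (adjusted p = 0.0499 by limma). Of 22 interferon response genes, 2 were higher (9.09%) and 0 lower at an unadjusted p under 0.05, Ifitm3 and Irf9, and the median was 0.03. That median ran from -0.098 to 0.12 as single knockdown arrays were left out, and the count was 1 or 2. Ifitm3, which codes for a membrane protein also high in stem cells and germ cells, read 4751 and 4815 in sh3 and 7827 and 6377 in sh4, with 7835 and 9371 in shNT (log2 0.56, SE 0.137). Here sh3 lay below both other groups. Of 21 genes of the small RNA machinery, through which hairpins act, 1 was higher and 0 lower, with a median of -0.02, and the count was 3 without the replicate 1 array of sh4 and 0 without each of the others.

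In the pluripotency lists no gene had an unadjusted p under 0.05 with all arrays, which does not show that the hairpins act alike. At that level only 2.95% of all genes were higher and 3.15% lower. Of 14 core pluripotency genes, 0 were higher or lower at an unadjusted p under 0.05, and the median was -0.0028, with 7 genes above and 7 below 0. Pou5f1, which codes for Oct4, read 9964 and 9281 in sh3 and 10932 and 9797 in sh4 (log2 0.11, SE 0.137; adjusted p = 0.939 by limma). Lin28a, which codes for an inhibitor of let-7 processing, read 4054 and 3195 in sh3 and 3507 and 2541 in sh4 (log2 -0.27, SE 0.175), so its arrays overlapped. Of 23 naive state genes and 18 formative epiblast genes, 0 were higher or lower at an unadjusted p under 0.05. Without the replicate 2 array of sh4 these counts were 4 and 3, and without each of the others 0 or 1. The formative median, 0.09, ran from -0.20 without the replicate 1 array of sh4 to 0.38 without the replicate 1 array of sh3, and the naive median, 0.05, from -0.027 without the replicate 2 array of sh4 to 0.24 without its replicate 1 array. Klf4, a naive factor, read 5930 and 5876 in sh3 and 4112 and 5557 in sh4 (log2 -0.30, SE 0.148; adjusted p = 0.827 by limma). Against shNT the naive list had medians of -0.48 with sh3 and -0.40 with sh4. Of 17 trophectoderm genes 1 was lower (5.88%, beside 3.15% of all genes) and 0 higher at that threshold, with a median of -0.28. The count was 4 without the replicate 1 array of sh3, 0 without its replicate 2 array or the replicate 1 array of sh4, and 2 without the replicate 2 array of sh4. The median ran from -0.41 to -0.024 over these, and was 0.097 for the 12 genes with a probe set specific by its name. The lower gene was Tfap2c, a factor of trophoblast and germ cells, which read 1779 and 1949 in sh3 and 1030 and 1495 in sh4 (log2 -0.58, SE 0.189; adjusted p = 0.682 by limma).

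The target belongs to the H3K9 methylation pathway. At an unadjusted p under 0.05, 0 of 24 genes for writers, readers and erasers of H3K9 methylation were higher, beside 2.95% of all genes. Lower was 1 (4.17%, beside 3.15% of all genes), Jmjd1c itself. The count was 0 without the replicate 2 array of sh3, and 2 and 3 without the replicate 1 and 2 arrays of sh4. Kdm3a, of the same family as Jmjd1c, read 4258 and 4429 in sh3 and 4619 and 5708 in sh4 (log2 0.24, SE 0.126; adjusted p = 0.827 by limma).

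**Figure D3:**
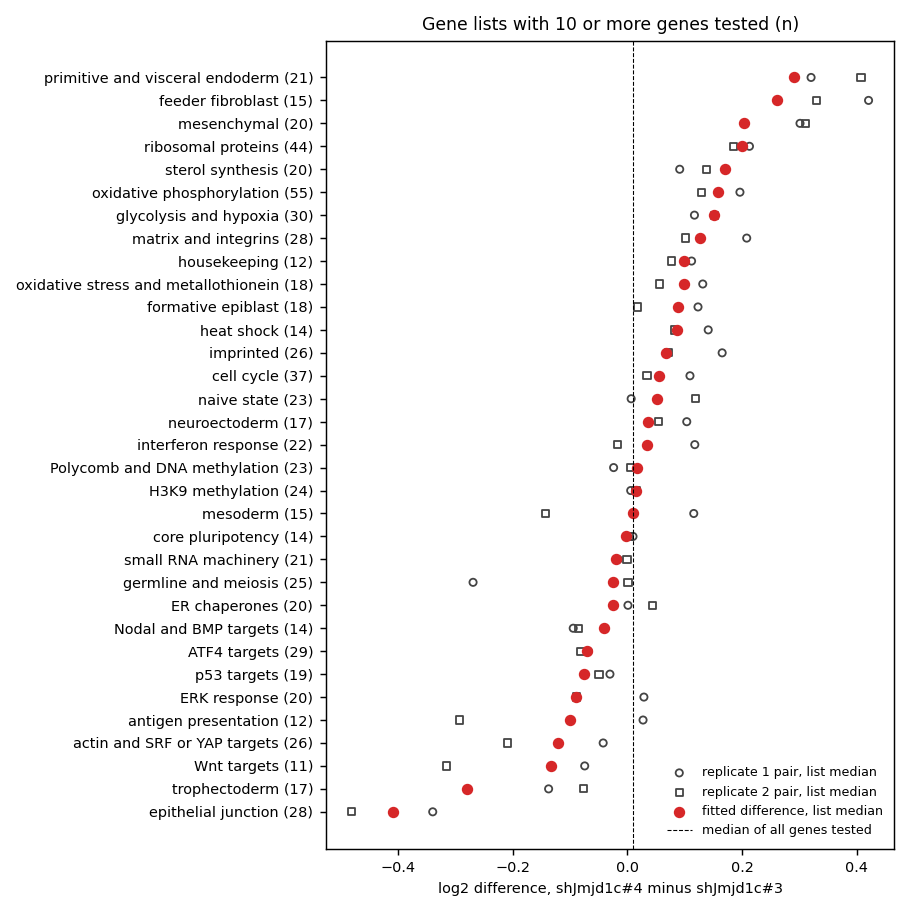
Median log2 difference, shJmjd1c#4 minus shJmjd1c#3, of each list with 10 or more genes tested (red; n in brackets), with the medians of the replicate 1 pair (open circles) and the replicate 2 pair (open squares) of arrays. The endoderm list is highest at 0.29 and the epithelial junction list lowest at -0.41, and the dashed line is the median of all genes, 0.01.

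The last question was how the hairpins compared at the genes that the knockdown itself moved. Taking the mean of both hairpins against shNT, 92 genes passed at an adjusted p under 0.05 by limma (0.725%). That mean is orthogonal to the difference between hairpins, although both tests use the same estimate of spread. In 55 of the 92 the sh4 mean lay further from shNT and in 37 the sh3 mean. The arrays of the hairpins did not overlap at 35 of the 55 and at 11 of the 37. Over all genes tested, both sh4 arrays lay above both sh3 arrays at 20.3% and below them at 18.2%. In the 92 genes the median difference was 0.10 when turned so that positive means further with sh4. At an unadjusted p under 0.05, 17 were further with sh4 and 4 with sh3, together 22.8%. The median standard error was 0.171 in these genes and 0.205 in all genes, so genes of low spread are over-represented. The share therefore cannot be read directly against 6.1%, nor the counts without overlap against the shares of all genes. By adjusted p none of the 92 passed, and with the replicate block 3 did, Hmga2, Col4a1 and Prickle1, all further with sh4. The median was 0.011 without the replicate 1 array of sh4, and the number at an unadjusted p under 0.05 was 12 without the replicate 2 array of sh3.

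Of the 92 genes Megf10 was furthest toward sh4, followed by Masp1, Tnc, Col4a1 and Hmga2, and Mep1b was furthest toward sh3, followed by Itga8, Podxl and Sparc. Tnc, which codes for the matrix glycoprotein tenascin C, read 141 and 158 in sh3 and 354 and 313 in sh4, against 19.6 and 6.37 in shNT (log2 1.08, SE 0.317; limma adjusted p = 0.610). The gene Megf10, for a receptor that engulfs cell debris, read 60.4 and 62.0 in sh3 and 147 and 224 in sh4 (log2 1.36, SE 0.355; adjusted p = 0.568 by limma). Masp1, which codes for a protease of the lectin pathway of complement, read 89.9 and 84.0 in sh3 and 234 and 209 in sh4 (log2 1.20, SE 0.291). Cd44, which codes for the hyaluronan receptor, read 130 and 116 in sh3 and 230 and 201 in sh4 (log2 0.74, SE 0.268). Col3a1, a fibrillar collagen gene, read 109 and 190 in sh3 and 171 and 254 in sh4, so its arrays overlapped. Among genes lowered by the knockdown, Mep1b, which codes for the protease meprin beta, was lower with sh3, at 114 and 134, than with sh4, at 222 and 201, with 350 and 407 in shNT (log2 0.70, SE 0.223; adjusted p = 0.658 by limma). Itga8, which codes for an integrin alpha chain, was raised by the knockdown and read 287 and 470 in sh3 and 237 and 249 in sh4 (log2 -0.57, SE 0.270). Podxl, which codes for the sialomucin podocalyxin, read 1214 and 1193 in sh3 and 919 and 830 in sh4, above 555 and 494 in shNT (log2 -0.46, SE 0.146), although the average of its probe sets gave 0.18 the other way. Prdm1, which codes for the germ cell repressor Blimp1, read 349 and 448 in sh3 and 282 and 358 in sh4, so its arrays overlapped.

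Other genes with large knockdown responses did not separate the hairpins. Acta2, which codes for smooth muscle actin, read 2422 and 3471 in sh3 and 2639 and 3749 in sh4, and the 2 replicates of a hairpin were further apart than the hairpins (log2 0.12, SE 0.253; adjusted p = 0.971 by limma). Cdx2, a trophectoderm and posterior factor, read 90.6 and 209 in sh3 and 104 and 120 in sh4 (log2 -0.28, SE 0.458; adjusted p = 0.956 by limma). Of the 12 largest rises with non-overlapping control, 9 were further with sh4 and 3 with sh3, and of the 12 largest falls 4 and 8. At an unadjusted p under 0.05 these were 3 and 0 of the rises and 0 and 1 of the falls.

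**Figure D4:**
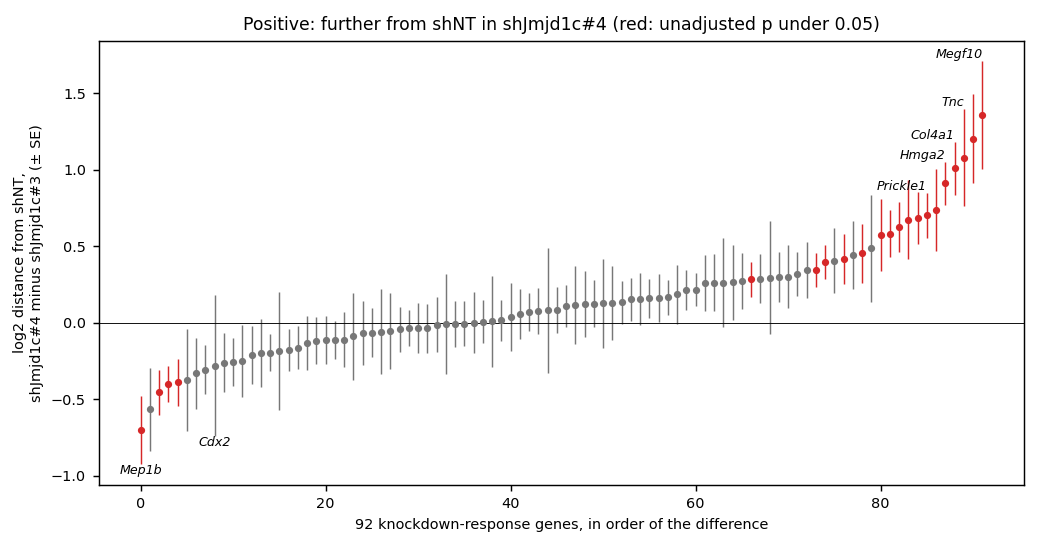
The 92 genes that passed in the mean of both hairpins against shNT, in order of the log2 difference between shJmjd1c#4 and shJmjd1c#3, turned so that positive means further from shNT with shJmjd1c#4 (vertical axis, with standard errors from limma, 2 arrays a group). Red marks the 21 genes with an unadjusted p under 0.05, of which 17 lie above 0 and 4 below, from Mep1b to Megf10.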

How the data were processed

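The samples were 6 arrays in 3 groups of 2, grouped by their transfection label, and the replicate numbers came from the titles. The authors deposited MAS5 signals, a linear intensity per probe set, per the submitters' processing notes. No source used here gives the MAS5 version. Its usual scaling target, the trimmed mean over the central 96% of probe sets, was 500 on every array, so the signals had been scaled per array and were used as they stand, with no background correction added. Of 45101 probe sets, 64 were controls; 34945 had 1 symbol in the platform annotation, 932 several and 9160 none, and only the first kind was used (34754 matched RefSeq by Entrez ID, and 0 symbols changed).

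Signals were transformed here to log2(signal + 16). A gene was read by its brightest probe set, by mean over the 6 arrays, and probe sets under the 40th percentile (log2 5.81, a signal of 40.1) were left out. Probe sets cannot be compared in level between genes, and the log2 difference understates that of dim genes. Group means of the 3 groups were fitted by limma 3.58.1 (R 4.3.3) with an intensity trend (residual df 3, prior df 5.96), 2-sided, with p-values adjusted over the 12684 genes (Benjamini-Hochberg, threshold 0.05). The shNT arrays entered the spread only. The code was checked on simulated data.

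Replicates are biological by their labels. Arrays with the same number deviated together from the means of their groups, at r = 0.302, 0.223 and 0.300 in the 3 pairs of groups, so the numbers were taken to pair the samples. This inference comes from the same data, and no label states a shared day. A fit with the replicate block (residual df 2, prior df 9.34) is given where it changed the call of a named gene.

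The comparison and the 37 lists were chosen with earlier results of these data known. Named were Jmjd1c, the 15 genes with the smallest p each way whose arrays did not overlap and whose higher mean signal was at least 100 (no gene passed; RIKEN, Gm and like symbols were passed over), up to 4 members of a list by p, and the 12 largest rises and 12 largest falls of the knockdown mean. Further list members were named for their role or for an unadjusted p under 0.05, after their values were seen. No list was tested as a set. Alternatives were other scalings, pseudocounts, filters and probe sets, limma without the trend, the 4 knockdown arrays alone, the replicate block, and leaving out each array. Matplotlib drew the figures.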

Additional observations from a re-analysis of the deposited data

Results flagged for a closer look

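For 10 genes every sh4 array lay on one side of both shNT arrays and every sh3 array on the other. The difference between the hairpins was tested in the fit over all genes and did not pass for any of the 10 without the replicate block (limma, Benjamini-Hochberg). With the replicate block 8 passed: Srgn (adjusted p = 0.00112), Vegfc (0.0237), Med28 (0.0319), Hsd17b7 (0.0499), Ap1m2 (0.0207), Arap2 (0.0386), Ppwd1 (0.0168) and Serinc1 (0.0490), while Nr2f2 (0.0640) and Sfrp1 (0.0608) did not; that the hairpins moved in opposite directions from shNT was not tested. The log2 difference, sh4 minus sh3, was 2.22 for Srgn, 2.03 for Nr2f2, 0.83 for Hsd17b7, 0.77 for Vegfc, 0.77 for Sfrp1 and 0.60 for Med28. It was -0.96 for Arap2, -0.81 for Ap1m2, -0.77 for Ppwd1 and -0.70 for Serinc1. These genes had been chosen for sh4 and sh3 arrays that do not overlap, so they are not a sample of all genes. Nr2f2 was near background in sh3 (17.6 and 10.6) and in shNT (34.5 and 48.7), so its side of shNT and the size of its difference are uncertain.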

How the results depend on the processing

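The count of genes passing the difference between hairpins was 0 in 16 of 18 alternatives, in which 449 to 1088 genes had an unadjusted p under 0.05 by limma. It was 53 with the replicate block (22 higher and 31 lower in sh4), and 880 (443 higher, 437 lower) with the replicate block on the 4 knockdown arrays alone. The latter fit had 1 residual degree of freedom and an infinite prior df, so each gene's own spread hardly entered it. Among the Jmjd1c probe sets, 1448049_at read -0.015 with median centring, and from -0.13 to 0.24 as single arrays were left out; 1439998_at ranged from -0.30 to 0.50. The knockdown-response median ranged from 0.011 to 0.14 as arrays were left out. Without probe sets that may match several transcripts, Ccn1 read 0.038, Ctnna1 0.13 and Lamb1 -0.052. With all probe sets of a gene averaged, Podxl read 0.18. With single arrays left out, the small differences of some genes changed sign: Acta2 ranged from -0.14 to 0.37, Cdx2 from -0.82 to 0.26, Lrp2 from -0.24 to 0.10, Tjp1 from -0.10 to 0.023, Ctnna1 from -0.16 to 0.15, Jup from -0.15 to 0.082, Lamb1 from -0.030 to 0.30 and Lamc1 from -0.062 to 0.30. The cause was not tested. Where an array was left out, the lone array of its group was assumed to vary like the others. With 2 arrays a group, signals near background and differences under a few standard errors are not resolved.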
